A study of Arabidopsis thaliana with 9 samples.

Results

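LHCB4.1, LHCB4.2 and PSAE-1 are 3 nuclear genes for proteins of the photosystems of Arabidopsis thaliana. They were chosen by name, each through the probe set that reads it: 251082_at for LHCB4.1 (AT5G01530, chromosome 5), 258993_at for LHCB4.2 (AT3G08940, chromosome 3) and 253738_at for PSAE-1 (AT4G28750, chromosome 4). They are 3 of 22746 probe sets on the ATH1 array, and all 3 were among the 14199 bright enough to be tested. RNA came from whole plants at growth stage 1.04, grown on sucrose-containing agar medium for 17 days at 21 C, 25 seeds to a plate, under days of 16 h light and 8 h darkness. Lines 409 and 348 are mutants labelled as T-DNA knock outs without a named disrupted gene, which leaves no targeted gene to check. The control, C2S1, is a wild type by its sample titles, but its genetic variation label also reads knock out mutation. The series title speaks of epigenetic mutants. Each line was read on 3 arrays. The labels do not state separate cultures for the samples of 1 line, nor how many plants were pooled in each, and the p-values therefore cover the spread among these arrays alone, which may be technical.

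LHCB4, also called CP29, is a minor chlorophyll-binding antenna protein of photosystem II. It sits between the trimeric outer antenna and the reaction centre core and passes excitation energy inward, and in Arabidopsis it is encoded by a small family of paralogues. PSAE is a peripheral subunit on the stromal face of photosystem I, close to where ferredoxin docks to take up electrons. All of these proteins are made in the cytosol and imported into the chloroplast, where they assemble with subunits encoded by the plastid genome.

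The deposited signals were already scaled, with a mean, trimmed by 2%, of 100 on each array, so that mean cannot show how alike the arrays were. At the bright end the arrays differed somewhat. The 99th percentile of signal ran from 2038 to 2187 over the 9 arrays and the brightest signal from 7829 to 9702. Replicate arrays correlated across tested probe sets at r = 0.963 to 0.973 in line 409, 0.976 to 0.980 in line 348 and 0.976 to 0.985 in C2S1. The number of arrays limits the precision. Markers of green tissue gave high signals: RCA (Rubisco activase) ranged from 5061 to 6350 signal units over the 9 arrays, PRK (phosphoribulokinase) from 1921 to 3186 and SBPASE (sedoheptulose bisphosphatase) from 1464 to 2028. The root marker PYK10, a beta-glucosidase of root ER bodies, ranged from 2340.4 to 3641. The root hair gene EXPA7 was dim, with means of 13.4 ± 4.27 in line 409, 6.94 ± 4.86 in line 348 and 7.46 ± 5.62 in C2S1 (SD, n = 3 each), and was not tested. Of the marker lists, 3 of 9 shoot and 2 of 6 root genes had a probe set of a single gene in the annotation used, and 0 of 3 seed and 0 of 4 flower genes did, so those organs were not analysed here.

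All 3 members gave some of the brightest signals on the array. Ranked from the brightest of the 22746 probe sets, LHCB4.1 stood between 25 and 38 on the 9 arrays (median 36), PSAE-1 between 18 and 38 (median 30) and LHCB4.2 between 131 and 215 (median 179). The signal of LHCB4.1 was 118 to 151 times the array's median signal, that of PSAE-1 118 to 161 times, and that of LHCB4.2 57.4 to 80.4 times. These ranks order probe set signals and not transcript amounts, since probe sets differ in how strongly they hybridise. PSAE-1 ranked 18, 28 and 19 on the arrays of line 409, 27, 34 and 37 in line 348, and 38, 34 and 30 in C2S1. Every array of line 409 therefore placed PSAE-1 above its best rank in C2S1.

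LHCB4.1 had signals of 5562, 4666 and 4794 in line 409, 4893, 5046 and 4981 in line 348, and 4939.9, 4628 and 4480.2 in C2S1. Both mutant lines overlapped C2S1, and the highest value was replicate 1 of line 409. The means were 5008 ± 485, 4973 ± 77.0 and 4683 ± 235 in line 409, line 348 and C2S1 (SD, n = 3 each). The log2 change of line 409 against C2S1 was 0.093 (SE 0.097, limma adjusted p = 0.731), a fold of 1.07 with a 95% interval of 0.924 to 1.23. For line 348 against C2S1 it was 0.088 (limma adjusted p = 0.946), a fold of 1.06 with an interval of 0.921 to 1.23. Line 409 against line 348 gave a fold of 1.00 with an interval of 0.870 to 1.16 (limma adjusted p = 0.994).

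LHCB4.2 had signals of 2966, 2169 and 2322 in line 409, 2362, 2412 and 2685 in line 348, and 2679, 2548 and 2341 in C2S1. Line 409 held both the highest and the lowest of the 9 values, and the 3 lines overlapped. The means were 2486 ± 423, 2486 ± 174 and 2522 ± 170.1 in line 409, line 348 and C2S1 (SD, n = 3 each). The fold of line 409 over C2S1 was 0.978 with a 95% interval of 0.819 to 1.17 (limma adjusted p = 0.943). That of line 348 over C2S1 was 0.986 with an interval of 0.825 to 1.18 (limma adjusted p = 0.993), and that of line 409 over line 348 was 0.992 with an interval of 0.831 to 1.19 (limma adjusted p = 0.989).

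PSAE-1 had signals of 5943, 5001 and 6051 in line 409, 5272, 5225 and 4389 in line 348, and 4507, 4781 and 4815 in C2S1. All 3 arrays of line 409 lay above the highest array of C2S1, while line 348 overlapped both. The means were 5665 ± 578 in line 409, 4962 ± 497 in line 348 and 4701 ± 169 in C2S1 (SD, n = 3 each). The log2 change of line 409 against C2S1 was 0.26 (SE 0.107), a fold of 1.2 with a 95% interval of 1.02 to 1.41. Its unadjusted limma p was 0.0267 and its limma adjusted p was 0.341, so it did not pass the threshold of 0.05. The two-sided exact permutation test gave p = 0.1, the smallest that 3 against 3 arrays allow. The fold of line 348 over C2S1 was 1.05 with an interval of 0.898 to 1.23 (limma adjusted p = 0.963), and that of line 409 over line 348 was 1.14 with an interval of 0.974 to 1.34 (limma adjusted p = 0.706). Both comparisons with C2S1 use the same 3 control arrays.

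**Figure D1:**
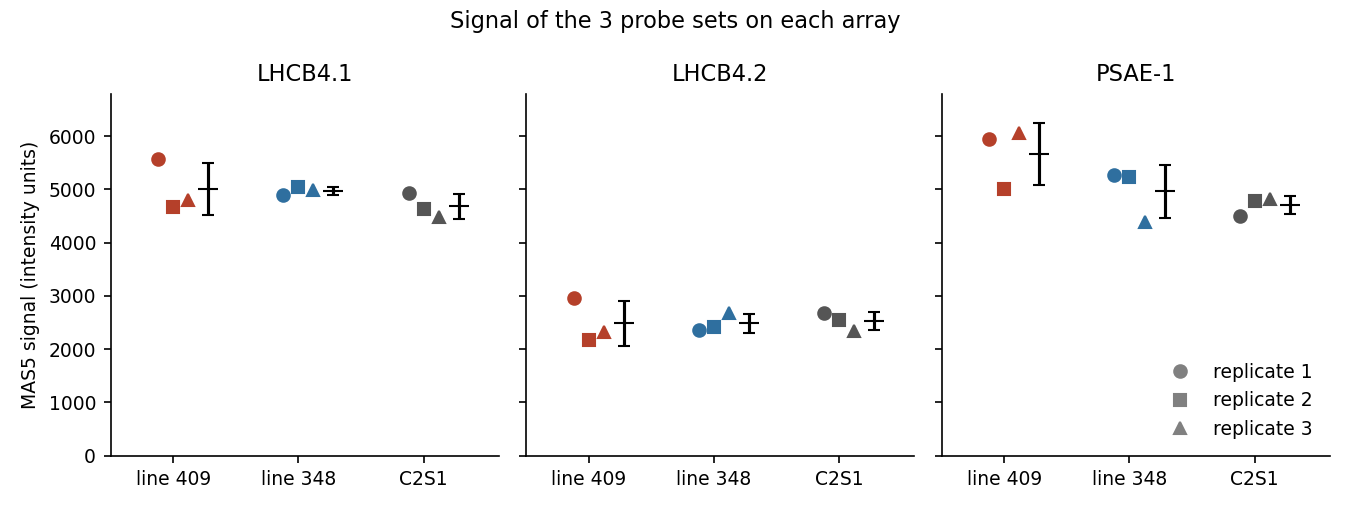
Signal of each member on each array (signal units, linear axis), with line 409, line 348 and C2S1 from left to right, marker shapes for replicates and bars for the mean and SD. The 3 PSAE-1 values of line 409, from 5001 to 6051, lie above the highest C2S1 value of 4815, whereas the lines overlap for LHCB4.1 and LHCB4.2.

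None of the 3 members passed the adjusted threshold in any comparison. Among all tested probe sets, 0.0423% passed in line 409 against C2S1, 0.0211% in line 348 against C2S1 and 0.0141% in line 409 against line 348. At an unadjusted limma p under 0.05, 1 member of 3 was reached in line 409 against C2S1, where 12.2% of all tested probe sets were, and 0 members in the other comparisons, where 5.64% (line 348 against C2S1) and 7.48% (line 409 against line 348) were. Being higher in line 409 than in C2S1 with no overlap, as PSAE-1 was (1 member of 3), held for 7.79% of tested probe sets. In line 348 against C2S1 and in line 409 against line 348, 0 members were higher with no overlap, against 6.06% and 5.47% of tested probe sets. Of the 500 tested probe sets nearest to PSAE-1 in signal, 7.8% had a change in line 409 at least as high.

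**Figure D2:**
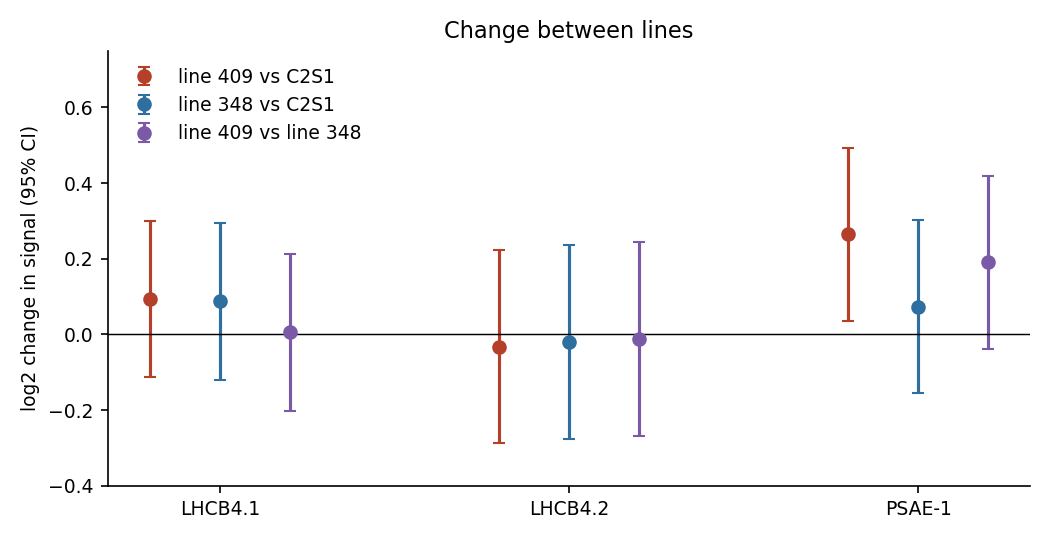
Log2 change of each member in line 409 and line 348 against C2S1 and in line 409 against line 348, with 95% intervals from limma. The interval of PSAE-1 in line 409 against C2S1, from 0.03 to 0.49, is the only one of the 9 that leaves out 0.

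The signals of lines 409 and C2S1 also differed in a hybridisation control. The mean log2 deviation of the bacterial and phage spike-in probe sets was -0.35 to -0.096 on the arrays of line 409, -0.12 to 0.38 in line 348 and 0.037 to 0.15 in C2S1. The ratio of 3' to 5' GAPDH control probe sets, a sign of RNA integrity, was 1.63 to 1.87 in line 409, 1.58 to 1.70 in line 348 and 1.79 to 1.97 in C2S1. The same ratio for actin was 6.08 to 10.7 in line 409, 6.38 to 11.3 in line 348 and 8.97 to 11.96 in C2S1, and for ubiquitin it was 1.37 to 2.17, 1.47 to 1.70 and 1.405 to 1.72 in line 409, line 348 and C2S1. Lines 409 and C2S1 overlapped in all 3 ratios, the means of line 409 being lower than those of C2S1 for GAPDH and actin and higher for ubiquitin. Line 348 lay wholly below C2S1 for GAPDH and overlapped it for actin and ubiquitin. The part of these controls in the PSAE-1 values was not tested. Measured relative to the brightest 1% of probe sets, a scale chosen after seeing the data, the log2 difference of PSAE-1 between line 409 and C2S1 was 0.21 (exact permutation p = 0.1).

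LHCB4.1 was among the steadier transcripts. The SD of its log2 signal among replicates, pooled over lines, was 0.090, and 5.23% of tested probe sets had a smaller one. The SD was 0.159 for LHCB4.2 and 0.126 for PSAE-1, against a median of 0.194 over tested probe sets. Compared with the 500 probe sets nearest in signal, 18.2% had a smaller SD than LHCB4.1, 65.6% than LHCB4.2 and 44.6% than PSAE-1. LHCB4.1 and LHCB4.2, the paralogue pair, had different spreads, and that difference was not tested. Differences among replicates made up 74.6% of the variance of LHCB4.1, 99% of that of LHCB4.2 and 46.2% of that of PSAE-1, where the degrees of freedom alone give 75%.

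The LHCB4.1 signal was about the same multiple of the LHCB4.2 signal on every array. The ratio was 1.87, 2.15 and 2.06 in line 409, 2.07, 2.09 and 1.85 in line 348, and 1.84, 1.82 and 1.91 in C2S1. Its means were 2.03 ± 0.140, 2.00 ± 0.131 and 1.86 ± 0.0497 in line 409, line 348 and C2S1 (SD, n = 3 each), and the lines overlapped. The log2 difference was 0.13 (SE 0.062) for line 409 against C2S1 and 0.11 (SE 0.060) for line 348 against C2S1, each with exact permutation p = 0.2, and 0.017 (SE 0.081) for line 409 against line 348, with exact permutation p = 0.8. Because the probe sets may respond differently, the ratio of signals is not a ratio of transcripts, and only its change between arrays can be read.

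The log2 ratio of PSAE-1 to the mean of the LHCB4 pair was 0.55, 0.65 and 0.86 in line 409, 0.63, 0.58 and 0.26 in line 348, and 0.31, 0.48 and 0.57 in C2S1. Line 409 averaged highest, and its lowest array lay within the range of C2S1. The difference was 0.23 (SE 0.119, exact permutation p = 0.2) for line 409 against C2S1, 0.040 (SE 0.139, exact permutation p = 0.7) for line 348 against C2S1 and 0.19 (SE 0.147, exact permutation p = 0.4) for line 409 against line 348.

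**Figure D3:**
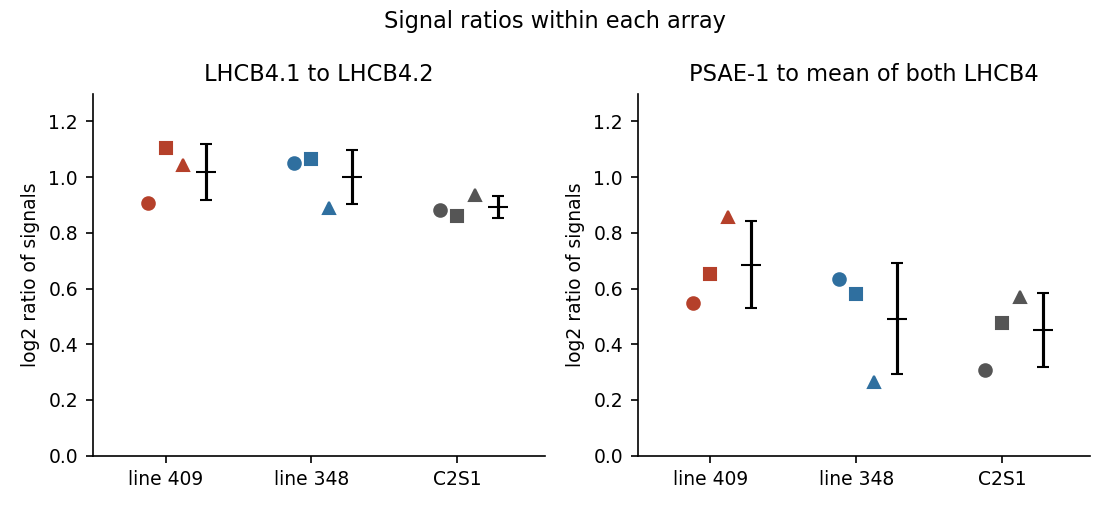
Log2 ratios of signals within each array for line 409, line 348 and C2S1, with LHCB4.1 to LHCB4.2 on the left, PSAE-1 to the mean of both LHCB4 on the right, marker shapes for replicates and bars for the mean and SD. The log2 ratio of LHCB4.1 to LHCB4.2 stays between 0.86 and 1.103 on all 9 arrays, and the lines overlap in both panels.

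Covariation was measured over the 9 arrays for each pair of members. LHCB4.1 and LHCB4.2 correlated at r = 0.742 (exact permutation p = 0.0220, adjusted over 3 pairs 0.0661) and rho = 0.667 (exact permutation p = 0.0589, adjusted 0.177), short of the threshold after adjustment. The 2 arrays farthest from the median of LHCB4.1 were replicate 1 of line 409 and replicate 3 of C2S1. Without both, r was 0.427 (exact permutation p = 0.331). It was 0.450 without replicate 1 of line 409 alone (exact permutation p = 0.261) and 0.744 without replicate 3 of C2S1 alone. The size of r thus depended largely on replicate 1 of line 409. Over all 9 arrays r was 0.855 after quantile normalization (exact permutation, adjusted p = 0.0115) and 0.820 after median centring (adjusted p = 0.0206). On deviations from the line means r was 0.921, given as a description. LHCB4.1 with PSAE-1 gave r = 0.403 (exact permutation p = 0.288, adjusted 0.432) and rho = 0.167 (exact permutation p = 0.678), and r = -0.153 without the 2 farthest arrays. LHCB4.2 with PSAE-1 gave r = -0.039 (exact permutation p = 0.921) and rho = -0.333 (exact permutation p = 0.385), and r = -0.518 without its 2 farthest arrays.

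The LHCB4 signals ran opposite to the root marker across arrays. PYK10 had signals of 2340.4, 3571 and 3641 in line 409, 3386, 3131 and 2929.9 in line 348, and 3004, 3163 and 3470.5 in C2S1, so replicate 1 of line 409 was lowest for PYK10 and highest for LHCB4.2. LHCB4.2 and PYK10 correlated at r = -0.939 (exact permutation p = 9.65e-05, adjusted 0.00116 over 12 relations of members with organ markers) and rho = -0.967 (exact permutation p = 0.000165). Without the 2 arrays farthest from the median of LHCB4.2, r was -0.872 (exact permutation p = 0.00694, adjusted 0.0833), leaving out each array in turn kept r between -0.954 and -0.910, and r on deviations from the line means was -0.957. After quantile normalization it was -0.727. The relations with organ markers were chosen after the values had been seen. In whole plants, fewer cells of a type and less RNA per cell cannot be told apart.

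LHCB4.1 correlated with PYK10 at r = -0.850 (exact permutation p = 0.0074, adjusted 0.0230) and rho = -0.75 (exact permutation p = 0.0255), with r = -0.542 without the 2 farthest arrays (exact permutation p = 0.209). With PRK, LHCB4.1 gave r = 0.819 (exact permutation, adjusted p = 0.0230) and rho = 0.667 (exact permutation p = 0.0589), with r = 0.447 without the 2 farthest arrays (exact permutation p = 0.319). LHCB4.2 gave r = 0.801 with PRK (exact permutation, adjusted p = 0.0230) and rho = 0.767 (exact permutation p = 0.0214). That r was 0.732 without the 2 farthest arrays (exact permutation p = 0.0585, adjusted 0.234). With SBPASE, LHCB4.2 gave r = 0.824 (exact permutation, adjusted p = 0.0230) and rho = 0.917 (exact permutation p = 0.00131), with r = 0.550 without the 2 farthest arrays (exact permutation p = 0.196). LHCB4.1 gave r = 0.611 with SBPASE (exact permutation, adjusted p = 0.140) and rho = 0.55 (exact permutation p = 0.133). Without the 2 farthest arrays, none of the 12 relations of members with organ markers had an adjusted exact permutation p under 0.05. The lowest was 0.0833, for LHCB4.2 with PYK10. The remaining shoot marker, RCA, gave r = -0.021 with LHCB4.2 (exact permutation p = 0.957) and rho = -0.183 (exact permutation p = 0.644). With LHCB4.1 it gave r = 0.492 (exact permutation p = 0.178) and rho = 0.433 (exact permutation p = 0.250), and r was -0.428 after quantile normalization.

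PSAE-1 gave r = -0.082 with PYK10 (exact permutation p = 0.843) and rho = 0.35 (exact permutation p = 0.359), with r from -0.421 to 0.742 when an array was left out. With PRK its r was 0.114 (exact permutation p = 0.776) and its rho -0.1 (exact permutation p = 0.810). With SBPASE its r was -0.238 (exact permutation p = 0.541) and its rho -0.483 (exact permutation p = 0.194), and without the 2 farthest arrays r was -0.836 (exact permutation p = 0.0167). It correlated with RCA at r = 0.737 (exact permutation, adjusted p = 0.0492) and rho = 0.767 (exact permutation p = 0.0214). That r was 0.623 without the 2 farthest arrays (exact permutation p = 0.128) and 0.20 after quantile normalization. The log2 change of PYK10 itself was -0.039 in line 409 and -0.029 in line 348, each against C2S1, and the lines overlapped.

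**Figure D4:**
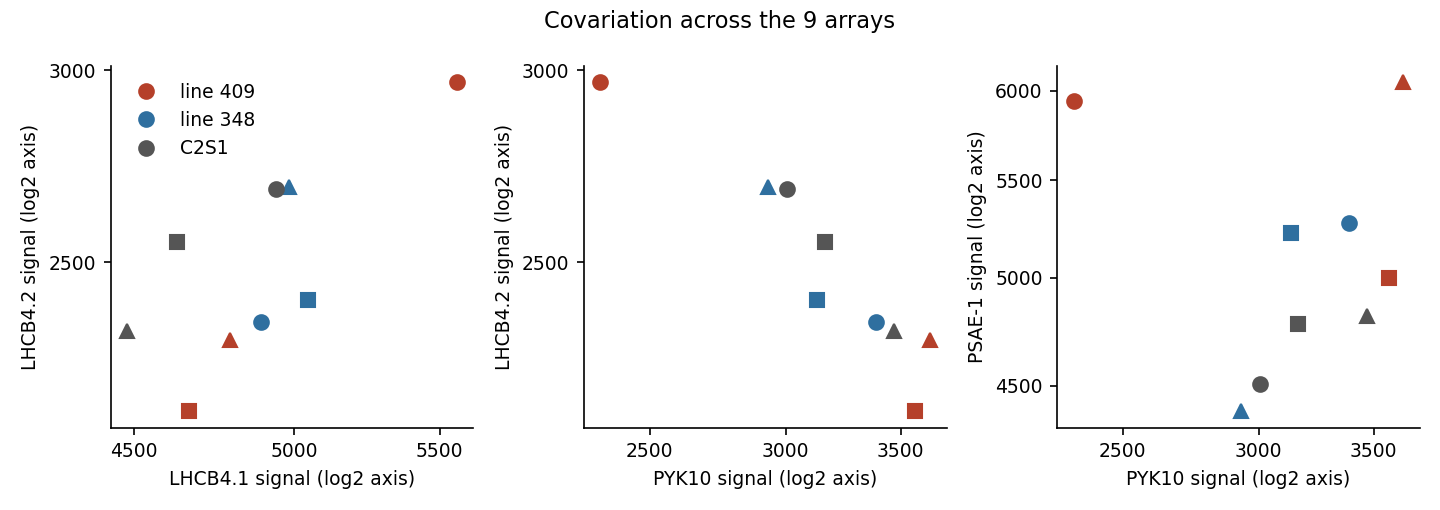
Signals on log2 axes over the 9 arrays, coloured by line with marker shapes for replicates: LHCB4.2 against LHCB4.1 on the left, LHCB4.2 against PYK10 in the middle and PSAE-1 against PYK10 on the right. LHCB4.2 runs opposite to PYK10 (r = -0.939), and replicate 1 of line 409 is the highest array for both LHCB4 genes and the lowest for PYK10.

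The tested genes most like each member over the 9 arrays, were taken from 7632 probe sets of a single gene. For LHCB4.1 they were AT3G18800 (r = 0.929), AT4G29590 (0.927), XTH16, a cell wall xyloglucan-modifying enzyme by its name (0.915), and AT5G06130 (0.909). For LHCB4.2 they were AT5G44680 (0.946), AT2G45700 (0.942), AT3G04860 (0.935) and AT1G06240 (0.921). For PSAE-1 they were AT3G12650 (0.966), AT1G76050 (0.960), AT4G31450 (0.924) and AT1G47410 (0.924). These r are descriptions over arrays that share their scaling, and as the highest of 7632 over 9 arrays they are high by selection. The genes were far dimmer than the members, with median signals from 40.4 (AT1G47410) to 395 (AT5G44680).

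The other nuclear genes of photosynthesis were looked at through 110 listed genes, of which 17 were read by a tested probe set of a single gene, the 3 members included. In line 409 against C2S1, 12 had a change above 0 and 5 below, with a median of 0.093 against -0.012 over all tested probe sets, and 0 passed the adjusted limma threshold. In line 348 against C2S1, 10 were above 0 and 7 below, with a median of 0.074 against -0.0094, 0 passed and 0 had an unadjusted limma p under 0.05. Of all tested probe sets, 47.8% were above 0 in line 409 and 48% in line 348. The 500 probe sets nearest to PSAE-1 in signal had median changes of 0.023 in line 409 and 0.045 in line 348. After quantile normalization the medians of the 17 genes were 0.025 in line 409 and 0.00012 in line 348. At an unadjusted limma p under 0.05 in line 409 against C2S1 there were 5 of the 17, all of them among the 8 photosystem genes tested and all with a higher mean than C2S1: PSAE-1, LHCB4.3, PSAN, PSBY and PSB27. Among all tested probe sets, 12.2% had such a p, 5.38% with a higher mean. Of the 8 photosystem genes, 2 were counted without replicate 1 of line 409, and 3 without the filter on dim probe sets or without the intensity trend. Of the 17 genes, 3 were counted under each of these settings, 2 of them higher without replicate 1 of line 409. The share of all probe sets with such a p was 14.6% without replicate 1 of line 409 (6.68% with a higher mean). It was 11.7% without the filter (5.14% higher) and 11.6% without the intensity trend (5.26% higher).

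LHCB4.3, the third LHCB4 paralogue, had a median signal rank of 6668. Its signal averaged 112 ± 7.97 in line 409, 87.4 ± 10.6 in line 348 and 75.8 ± 20.02 in C2S1 (SD, n = 3 each), a log2 change of 0.57 (SE 0.168) in line 409 against C2S1 with limma adjusted p = 0.223. PSAN, a lumenal photosystem I subunit, showed a value of 0.27 on the log2 scale (limma adjusted p = 0.403). Of the photosystem II proteins, PSBY, a small membrane subunit, had 0.38 (limma adjusted p = 0.266), PSB27, an assembly and repair factor, 0.46 (limma adjusted p = 0.245), and PSBW, a small subunit, -0.19 (limma adjusted p = 0.533).

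Outside the photosystems the log2 changes in line 409 against C2S1 ran from -0.19 to 0.15. PETM of the cytochrome b6f complex had a log2 change of 0.093 and ATPC1, the gamma subunit of ATP synthase, 0.15. In the Calvin cycle RCA had 0.15, PRK 0.0062 and SBPASE -0.025. In chlorophyll synthesis GSA1 had -0.19, CHLI2 of magnesium chelatase -0.038, CHLM 0.034 and PORB, a protochlorophyllide oxidoreductase, 0.14. The plastid-encoded partners of PSAE-1 in photosystem I, psaA, psaB, psaC, psaI and psaJ, had log2 changes of 0.31, 0.19, 0.19, 0.11 and 0.27 in line 409 against C2S1, and 0 of these 5 passed the adjusted limma threshold or had an unadjusted p under 0.05. Of the 15 plastid-encoded photosystem II genes, partners of the LHCB4 proteins, 6 were above 0 and 9 below, with a median of -0.16, and 0 passed the adjusted limma threshold. The highest log2 changes were those of psbL (0.46), psbI (0.40) and psbM (0.21), and the lowest those of psbN (-0.75), psbB (-0.28) and psbE (-0.28). At an unadjusted limma p under 0.05 were psbI, psbL and psbN, 3 of the 20 plastid-encoded photosystem genes, against 12.2% of all tested probe sets. Over the alternative settings that count ran from 1 to 6.

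**Figure D5:**
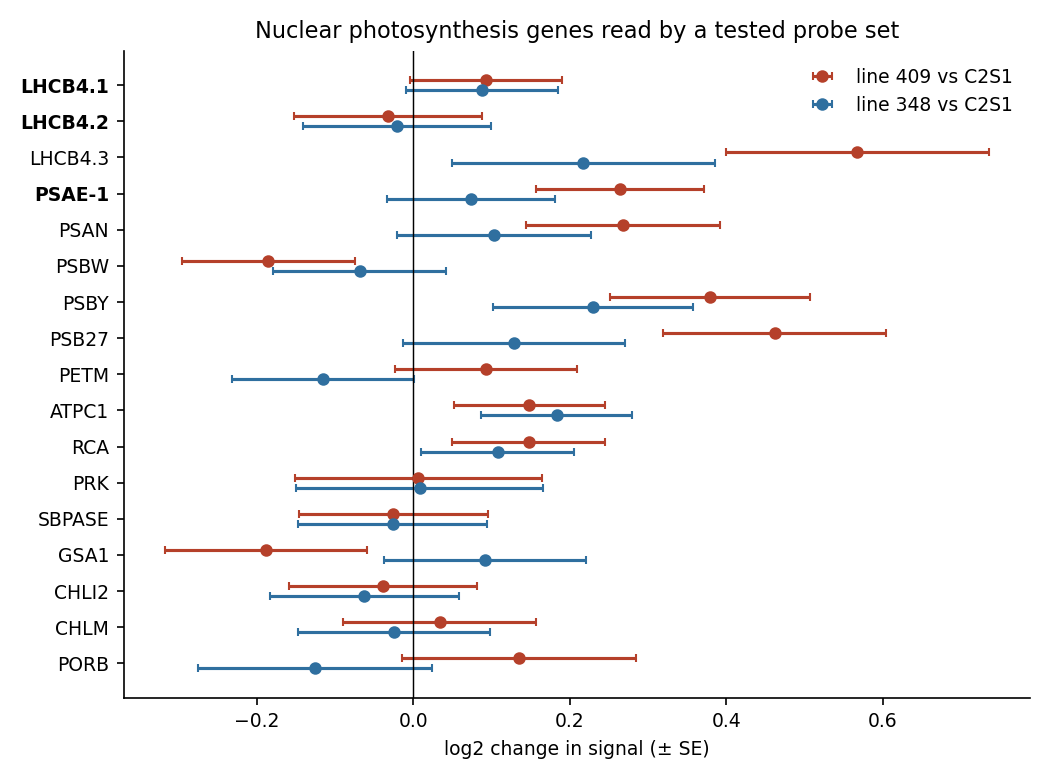
Log2 change (SE bars) of the tested nuclear photosynthesis genes in line 409 and line 348, each against the same C2S1 arrays. LHCB4.3 (0.57), PSB27 (0.46) and PSBY (0.38) have the highest values in line 409, and 0 of the 17 genes passed the adjusted threshold.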

How the data were processed

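Biotin-labelled total RNA of each whole-plant sample was read on its own Affymetrix ATH1 array. The deposited values are signal intensity in linear units from MAS5 and GCOS, per the submitters' processing notes (versions not given in the sources used here). Their scaling was kept and detection calls were not used. Samples were grouped by the line label. Titles number line 348 as 1, 1 and 3, and replicate numbers follow sample order.

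The 64 Affymetrix controls were left out. Names came from the given platform table and RefSeq (TAIR10.1): 13513 probe sets had 1 gene, 503 several and 8730 none named, and 77 with 1 gene had no RefSeq match. Each member had 1 probe set. Signals were analysed as log2(signal + 4.98), the added value being the 20th percentile (median of the arrays), and fold changes are on that scale. Probe sets had to exceed the 40th percentile of signal on 3 or more arrays to be tested.

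The lines were compared with limma 3.58.1 in R 4.3.3, in 1 linear model of all 9 arrays with an intensity trend (6 residual degrees of freedom, median prior 8.86). P-values were adjusted by Benjamini-Hochberg over 14199 probe sets and called under 0.05. The median SE for line 409 against C2S1 was 0.159. Ratios and correlations had two-sided exact permutation tests (Python 3.11.15, scipy 1.17.1). The code was tested on simulated data. Arrays of line 409 and C2S1 with the same number deviated together with r = 0.192, -0.037 and 0.103, so the numbers were not taken to pair samples.

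The members and lists were chosen with earlier results of these data known. The naming rule took the 3 members, the tested genes of each list (all of up to 8, otherwise 3 in each direction), the 4 genes most like each member and the RNA quality controls. Alternatives were quantile normalization, median centring, other pseudocounts, no filter, no intensity trend, only the arrays compared, a replicate block and each array left out.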

Additional observations from a re-analysis of the deposited data

How the results depend on the processing

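The 9 changes of the members were recomputed 162 times, and 148 kept their direction and 14 turned. Many of these could not turn, so the count of 148 does not measure how steady the direction is. The estimate stays the same without the filter, without the intensity trend, with only the arrays compared, or without an array of a line not compared. In these recomputations 0 passed the adjusted limma threshold, with a lowest limma adjusted p of 0.313. PSAE-1 in line 409 against C2S1 ranged from 0.214 to 0.351 with an array left out (limma adjusted p 0.313 to 0.690). Its lowest estimate was 0.189, after quantile normalization, with a limma 95% interval of 0.0053 to 0.373. That interval included 0 without the filter (-0.043 to 0.571) and without the intensity trend (-0.020 to 0.549). It also included 0 without replicate 1 or 2 of C2S1, or without replicate 1 or 3 of line 409. In the remaining limma fits the interval left out 0. With the replicate block the change of PSAE-1 was 0.264 (limma adjusted p = 0.359), and the block changed no call. Those that turned were all close to 0. LHCB4.1 in line 409 against line 348 was -0.016 after quantile normalization and -0.0061 after median centring, and -0.072 to 0.054 with an array left out. LHCB4.2 in line 409 against line 348 was 0.046 with the replicate block, 0.00088 relative to the brightest probe sets, and -0.145 to 0.080 with an array left out. With an array left out, LHCB4.2 ranged from -0.166 to 0.059 in line 409 and from -0.077 to 0.023 in line 348, each against C2S1. The LHCB4.1 to LHCB4.2 ratio in line 409 against line 348 was -0.0068 after quantile normalization and -0.039 to 0.073 with an array left out, and the PSAE-1 to LHCB4 ratio in line 348 against C2S1 was -0.032 to 0.155. The correlation of LHCB4.1 with LHCB4.2 was 0.855 after quantile normalization (exact permutation, adjusted p = 0.0115), 0.820 after median centring (exact permutation, adjusted p = 0.0206), and 0.450 to 0.817 with an array left out. LHCB4.1 with PSAE-1 was -0.023 after quantile normalization, -0.153 without the 2 farthest arrays and -0.020 to 0.577 with an array left out. LHCB4.2 with PSAE-1 was 0.025 after median centring, 0.044 on deviations from line means and -0.647 to 0.153 with an array left out. The cause of these shifts in changes, ratios and correlations was not tested. Among probe sets of a single gene the median ranks were 12, 70 and 10 for LHCB4.1, LHCB4.2 and PSAE-1. These numbers are smaller because 13513 probe sets were ranked in place of 22746. Over all tested probe sets, 6 were called in line 409 against C2S1, 3 in line 348 against C2S1 and 2 in line 409 against line 348. The ranges over the alternatives were 1 to 60, 1 to 24 and 1 to 6, and the counts of 60 and 24 came without replicate 3 of C2S1. With 3 arrays a line, the 95% intervals of the members against C2S1 had upper bounds of 1.17-fold to 1.41-fold.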
